A study of Mus musculus with 6 samples.

Results

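The 8 genes described here belong to the surface and antigen handling program of type 1 conventional dendritic cells (cDC1). They were chosen by name, as genes known from other work to mark these cells, with earlier results of these data known. All 8 (Xcr1, Clec9a, Ly75, Dpp4, Cadm1, Wdfy4, Naaa and Rab7b) are among the 26110 genes listed and the 17812 genes tested. Their transcripts were measured by bulk RNA-seq in MHCIIhi cells sorted by flow cytometry from the muscularis externa (ME), the muscle layer of the gut wall, of the small bowel. The 2 groups are the MHCIIhiCX3CR1- and the MHCIIhiCX3CR1+ cells, with 3 libraries each, and the question was how the transcriptomes of these neighbouring populations differ. Both groups came from naive, untreated mice of the genotype CX3CR1+/GFP on a C57BL/6 background, in which a green fluorescent protein replaces 1 allele of the fractalkine receptor gene and reports its activity. Every cell of both groups therefore lacked 1 intact Cx3cr1 allele, and the age of the mice is not given. The ME of several mice per group was pooled to obtain enough cells. Whether each library had a pool of its own is not stated, so that the p-values measure the spread between libraries, which may be technical. In the sample labels the sorted cells are dendritic cells, and in the study they are macrophages. The study also saw higher transcripts of dendritic cell markers in the CX3CR1- cells. At the protein level, its flow cytometry found CD11c and CD103 on very few of these cells and CD11b on most. Its microscopy found the macrophage marker IBA-1 in them.

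Conventional dendritic cells take up antigen in tissues and present it to T cells. The cDC1 subset takes up dying cells and displays their proteins on MHC class I to CD8+ T cells, a route called cross-presentation, and in the gut wall such cells stand beside cDC2 and resident macrophages. The 8 genes cover this route from the cell surface inwards. Xcr1 encodes a chemokine receptor, Clec9a and Ly75 encode lectin-type uptake receptors, and Dpp4 and Cadm1 encode a surface peptidase and an adhesion molecule. Inside the cell, Wdfy4 encodes a vesicle protein needed for cross-presentation of cell-bound antigen, Naaa a lysosomal amidase and Rab7b a small GTPase of late endosomes.

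Values are the deposited normalized read signals, and CX3CR1- and CX3CR1+ replicates are numbered 1 to 3 within each group. A log2 fold change is the difference between the mean log2(value + 1) of the CX3CR1- and of the CX3CR1+ libraries, so that a positive one means a higher level in CX3CR1- cells. A gene passed the test (limma, two-sided) if this difference was 1 or more in either direction with a Benjamini-Hochberg adjusted p, taken over all genes tested, of 0.05 or less. The libraries held about 5346379 to 17616748 reads assigned to genes, and 3 reads, the level under which a value was taken as not measurable, were worth 1.39 to 5.36 on the normalized scale. Mitochondrially encoded genes took 47.5 to 54.9% of the total in CX3CR1- and 18.1 to 21.2% in CX3CR1+ libraries. The part of this gap in the results was not tested, and setting totals equal without these genes changed no call of the 8. Cx3cr1, the gene the sort was based on, was at 23.2, 18.9 and 28.5 in CX3CR1- and at 371, 380.4 and 347 in CX3CR1+ libraries, in the direction of the labels.

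Of the 8 genes, 6 were higher in CX3CR1- cells, against 12.2% of all tested genes that passed in this direction. Rab7b was lower, against 8.15% of all tested genes, and Cadm1 did not pass. The groups did not overlap for 7 of the 8 genes, of which 6 were higher and 1 was lower in CX3CR1- cells. Over all tested genes, 20.3% were without overlap in the higher and 19.8% in the lower direction. The median log2 fold change of the 8 genes was 2.87, beside -0.0035 for all tested genes. In bulk RNA, fewer cells of a type and less RNA per cell cannot be told apart, so that each difference is one of the sorted population as a whole.

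**Figure D1:**
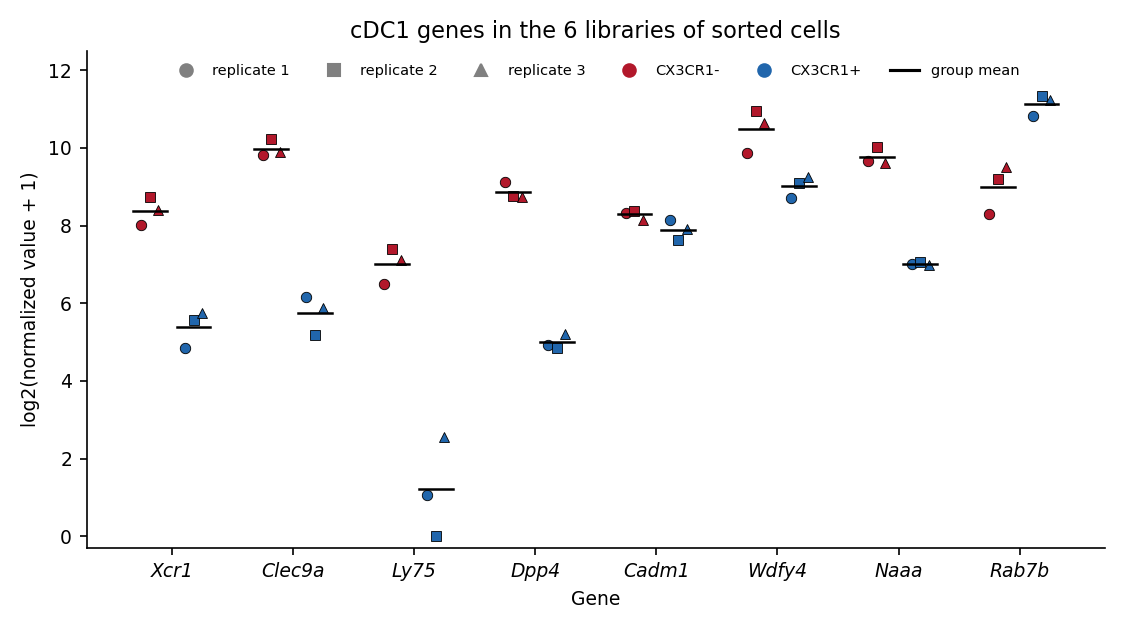
The normalized value of each of the 8 genes, as log2(value + 1), is plotted for every library, with CX3CR1- libraries in red, CX3CR1+ libraries in blue, a marker shape for each replicate and a black line at the group mean. For 6 genes all red points lie above all blue points, for Rab7b they lie below, and for Cadm1 the groups meet, with 280.2 in CX3CR1- replicate 3 and 281.3 in CX3CR1+ replicate 1.

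Sequence upstream of the genes is shown for 3 surface genes that rose in CX3CR1- cells, Clec9a, Xcr1 and Dpp4, because the 3 differ in what a motif search found there. The RefSeq promoter table for build GRCm38.p6 covers 250 bases before to 50 bases after the start site, and 6 of the 8 genes matched it. Each sequence is written 5′ to 3′ on the strand of its gene, with motif matches in capitals.
Clec9a, chr6:129408612-129408911, plus strand: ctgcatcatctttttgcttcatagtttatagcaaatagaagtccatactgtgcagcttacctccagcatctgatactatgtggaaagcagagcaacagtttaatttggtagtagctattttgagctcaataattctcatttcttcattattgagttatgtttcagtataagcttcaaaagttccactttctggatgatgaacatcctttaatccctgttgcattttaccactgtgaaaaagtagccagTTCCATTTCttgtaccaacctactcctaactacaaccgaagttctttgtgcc
Xcr1, chr9:123861980-123862279, minus strand: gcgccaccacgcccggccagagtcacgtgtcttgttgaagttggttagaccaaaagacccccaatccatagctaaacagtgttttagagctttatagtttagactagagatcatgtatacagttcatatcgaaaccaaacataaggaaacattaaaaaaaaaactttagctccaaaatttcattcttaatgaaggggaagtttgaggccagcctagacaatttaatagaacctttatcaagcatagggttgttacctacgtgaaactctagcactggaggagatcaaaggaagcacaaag
Dpp4, chr2:62412182-62412481, minus strand: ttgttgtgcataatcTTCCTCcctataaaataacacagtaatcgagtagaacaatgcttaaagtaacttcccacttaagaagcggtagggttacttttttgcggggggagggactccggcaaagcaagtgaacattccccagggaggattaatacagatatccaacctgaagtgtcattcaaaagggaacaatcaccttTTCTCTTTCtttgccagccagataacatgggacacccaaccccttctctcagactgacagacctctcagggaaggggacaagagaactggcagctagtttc
The motifs searched on both strands were GAGGAA, the core that PU.1 binds, TGANTCA, the AP-1 element, and GAAANNGAA, of the interferon-response type. Among 32851 promoters of this length, 28.3% hold the first, 7.81% the second and 8.56% the third. In Clec9a, the interferon-response type motif was found on the opposite strand, beginning 2 bases before the start site. In Dpp4, the PU.1 core was found on the opposite strand beginning 235 bases before the start site, and the interferon-response type motif on the opposite strand beginning 51 bases before it. None of the 3 motifs occurred in the windows of Xcr1, Wdfy4, Naaa and Ly75. The window of Ly75 had a GC content of 67.0% with 21 CpG, against 37.0% with 1 CpG in Clec9a and 40.0% with 6 CpG in Xcr1. Wdfy4, Naaa and Dpp4 lay between them at 54.3, 58.7 and 45.3%. A match is a description of letters and not evidence of a bound site.

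Clec9a, also called DNGR-1, binds actin filaments exposed by dead cells and is regarded as one of the most cell-type restricted cDC1 receptors. The gene lies on chromosome 6 from 129408862 to 129424763 on the plus strand (GRCm38). Its normalized values were 894, 1193 and 956 in CX3CR1- replicates 1, 2 and 3, and 70.1, 35.4 and 58.1 in the CX3CR1+ replicates. The lowest CX3CR1- library stood 12.7-fold above the highest CX3CR1+ library. The ratio of the group means was 18.6, and the log2 fold change was 4.24 (standard error 0.28, 95% confidence interval 3.61 to 4.86, adjusted p = 6.59e-06). Only 2.62% of the tested genes had a higher log2 fold change. Of the 31-mers of Clec9a, 4.63% also occur in the overlapping lectin gene Clec1b, whose values were 18.9, 47.8 and 3.22 against 1.59, 10.1 and 2.71. The intronic transcript Gm43914 on the same strand was at 228, 277 and 164 against 14.8, 0.820 and 24.1.

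Xcr1 is the receptor of the chemokine XCL1, which natural killer cells and CD8+ T cells release. It lies on chromosome 9 from 123852315 to 123862029 on the minus strand, and 3.32% of its 31-mers also occur in other genes. The CX3CR1- libraries held normalized values of 258, 426 and 335 for Xcr1, and the CX3CR1+ libraries 27.8, 46.8 and 52.4. All CX3CR1- libraries were above all CX3CR1+ libraries, with replicate 1 lowest in both groups. The group means were 339 ± 84.0 (SD, n = 3) and 42.3 ± 12.9 (SD, n = 3), and the log2 fold change was 2.99 (standard error 0.32, 95% confidence interval 2.29 to 3.70, adjusted p = 9.96e-05). The transcript of its ligand, Xcl1, was at 0, 19.7 and 0.997 in CX3CR1- libraries and listed at 0 in all CX3CR1+ libraries, and it was under the filter on low values.

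Ly75 encodes DEC-205, an endocytic receptor that delivers antigen to late endosomes. It lies on chromosome 2 from 60292103 to 60383303 on the minus strand. Its values were 89.5, 167 and 138 in CX3CR1- libraries and 1.07, 0 and 4.90 in CX3CR1+ libraries. In CX3CR1+ libraries these values correspond to about 2.31, 0 and 3.46 reads, so that 2 of the 3 libraries were at or under 3 reads. The log2 fold change was 5.80 (standard error 0.67, 95% confidence interval 4.31 to 7.29, adjusted p = 1.71e-04), the largest of the 8 genes. Because the CX3CR1+ level is so low, the size depends on the pseudocount, and with a pseudocount of 10 it was 3.54. The antisense transcript Gm13571, which holds 189 of the 6904 31-mers of Ly75, was at 13.7, 46.5 and 58.6 in CX3CR1- libraries and at 0 in all CX3CR1+ libraries, and the counting is not stated to have used strand.

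Dpp4 encodes CD26, a surface peptidase that trims chemokines and binds adenosine deaminase. It is not restricted to cDC1, being also a brush border enzyme of enterocytes and a marker of some fibroblasts and T cells. The gene lies on chromosome 2 from 62330073 to 62412231 on the minus strand, and 3.22% of its 31-mers also occur in the overlapping antisense transcript Gm13561. It was at 551, 429 and 427 in CX3CR1- libraries and at 29.6, 27.5 and 35.6 in CX3CR1+ libraries. The values were close together within each group and far apart between groups. The log2 fold change was 3.88 (standard error 0.25, 95% confidence interval 3.32 to 4.44, adjusted p = 6.27e-06), a 15.2-fold ratio of means. The summed level of 12 enterocyte genes was 34171, 31354 and 19337 in CX3CR1- replicates 1, 2 and 3, so that both it and Dpp4 were highest in replicate 1, and it was 95.9 to 141 in CX3CR1+ libraries. The part of enterocyte RNA in the Dpp4 value was not tested. In another experiment, its flow cytometry of chimeric mice, the study gated such cells on the leukocyte marker CD45. For the sort of these libraries it names the populations by MHCII and CX3CR1 and does not say which antibodies were used. Its antibody list for flow cytometry holds CD45, and its discussion calls the CX3CR1- cells CD45+. Ada, which encodes adenosine deaminase, was at 2337, 1487 and 659 against 127, 58.4 and 74.5 (log2 fold change 3.99, adjusted p = 1.20e-04). In the CX3CR1- libraries Ada fell from replicate 1 to replicate 3, as the enterocyte sum did, and the part of enterocyte RNA in it was not tested.

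Cadm1, an immunoglobulin-type adhesion molecule that binds CRTAM on activated CD8+ T cells, lies on chromosome 9 from 47530173 to 47857637 on the plus strand. It was at 321, 333 and 280.2 in CX3CR1- libraries and at 281.3, 197 and 240.0 in CX3CR1+ libraries. The groups touched at a single pair of libraries, CX3CR1- replicate 3 and CX3CR1+ replicate 1. The log2 fold change was 0.39 (standard error 0.22, 95% confidence interval -0.09 to 0.87, adjusted p = 0.231), and the exact two-sided permutation test gave p = 0.2, where the smallest that 3 libraries against 3 allow is 0.1. With quantile normalization, and with totals set equal without mitochondrially encoded genes, the groups no longer overlapped, but the gene still did not pass. The transcript of its partner, Crtam, was at 6.51 to 11.4 in CX3CR1- and 2.93 to 8.13 in CX3CR1+ libraries, under the filter on low values.

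Wdfy4, a BEACH domain protein that acts in the vesicle route of cross-presentation and is also made by B cells, lies on chromosome 14 from 32959547 to 33185508 on the minus strand. It was at 928, 1984 and 1581 in CX3CR1- libraries and at 418, 543 and 607 in CX3CR1+ libraries. The lowest CX3CR1- library was 1.53-fold above the highest CX3CR1+ library, the narrowest gap among the 6 higher genes. The log2 fold change was 1.47 (standard error 0.27, 95% confidence interval 0.85 to 2.08, adjusted p = 0.00325). It was 1.23 without CX3CR1- replicate 2 and 1.78 without CX3CR1- replicate 1, and it passed in both. No 31-mer of Wdfy4 occurs in another gene. Lrrc18, which lies on the opposite strand within the locus, was at 143 ± 37.5 (SD, n = 3) and 37.1 ± 18.2 (SD, n = 3), a difference that passed the test (1.99 on the log2 scale, adjusted p = 0.00367).

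Naaa encodes the lysosomal amidase that breaks down palmitoylethanolamide, an anti-inflammatory lipid. It lies on chromosome 5 from 92257659 to 92278170 on the minus strand, and 4.87% of its 31-mers also occur in other genes, most of all Olfr54. Naaa was at 802, 1032 and 780.1 in CX3CR1- libraries and at 128, 132 and 127 in CX3CR1+ libraries. The CX3CR1+ libraries were nearly level, with an SD of 0.03 on the log2 scale, and the CX3CR1- libraries were all at least 5.91-fold above them. The log2 fold change was 2.74 (standard error 0.20, 95% confidence interval 2.29 to 3.18, adjusted p = 1.06e-05). Of the enzymes around it, Napepld, which makes the lipid, stood at a log2 fold change of 1.12 (adjusted p = 0.0484) that did not pass under 11 of the 16 alternatives. Asah1, the related acid ceramidase, was lower (-1.41, adjusted p = 2.62e-04). Faah, another enzyme that breaks the lipid down, did not pass (0.64, adjusted p = 0.464).

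Rab7b went the other way. This GTPase steers traffic from endosomes to the lysosome and the Golgi and is also made by cells of the monocyte lineage. It lies on chromosome 1 from 131688695 to 131715439 on the plus strand. Rab7b was at 314, 581 and 723 in CX3CR1- libraries and at 1796, 2590.3 and 2394 in CX3CR1+ libraries. All CX3CR1+ libraries were above all CX3CR1- libraries, at 4.19 times the mean. The log2 fold change was -2.13 (standard error 0.29, 95% confidence interval -2.77 to -1.49, adjusted p = 4.62e-04), and only 2.69% of the tested genes had a lower one. Just 1 of its 4706 31-mers occurs elsewhere, and none in Rab7. Rab7 itself was at 3513 to 3972 in CX3CR1- and 4519 to 5540 in CX3CR1+ libraries, with a log2 fold change of -0.45 that did not reach the fold threshold (adjusted p = 0.0390). Besides Cx3cr1, on which the cells were sorted, all 10 macrophage genes listed were also lower in CX3CR1- cells, with summed levels of 9939 to 12401 against 54288 to 60597, and their part in the Rab7b difference was not tested.

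**Figure D2:**
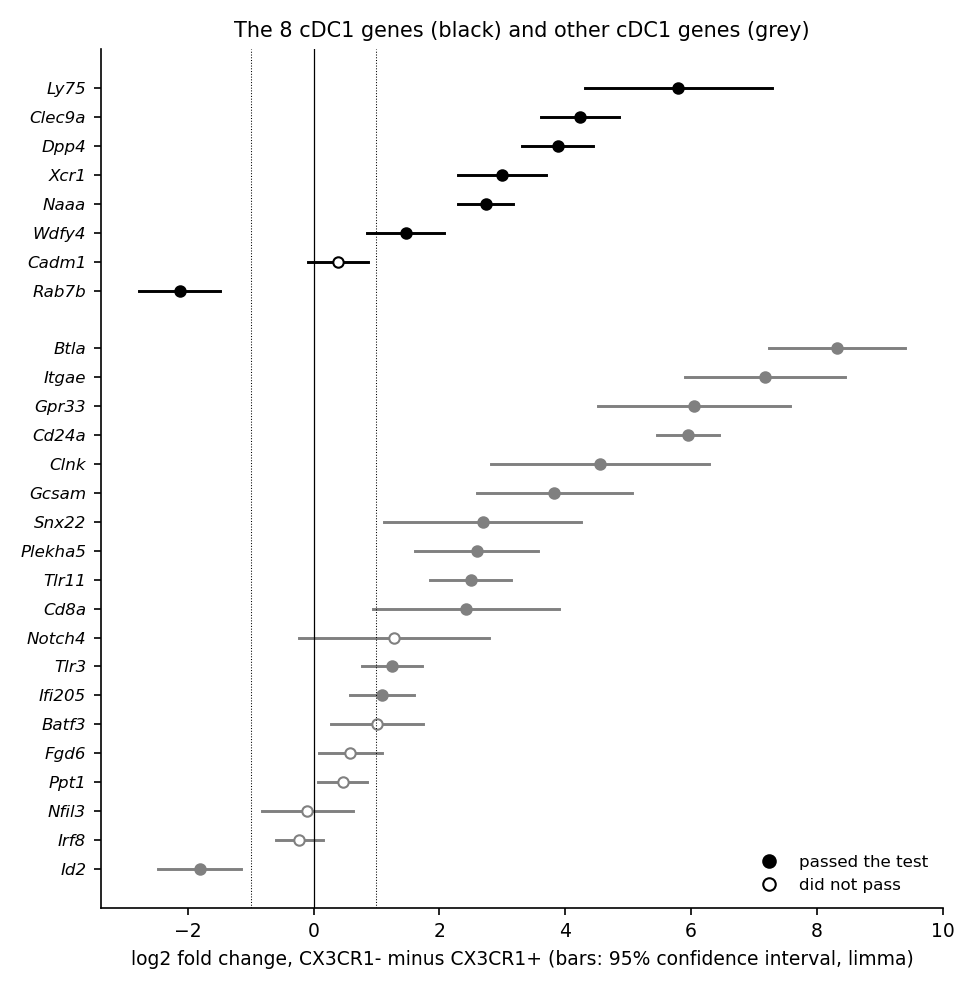
Log2 fold changes (CX3CR1- minus CX3CR1+) with 95% confidence intervals from limma are drawn for the 8 genes in black and for 19 other cDC1 genes in grey, with filled points for genes that passed the test and dotted lines at -1 and 1. The black points run from -2.13 for Rab7b to 5.80 for Ly75, Id2 at -1.81 is the lowest of the grey ones, and the fitted values of Btla, Gpr33 and Clnk depend on the pseudocount.

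**Figure D3:**
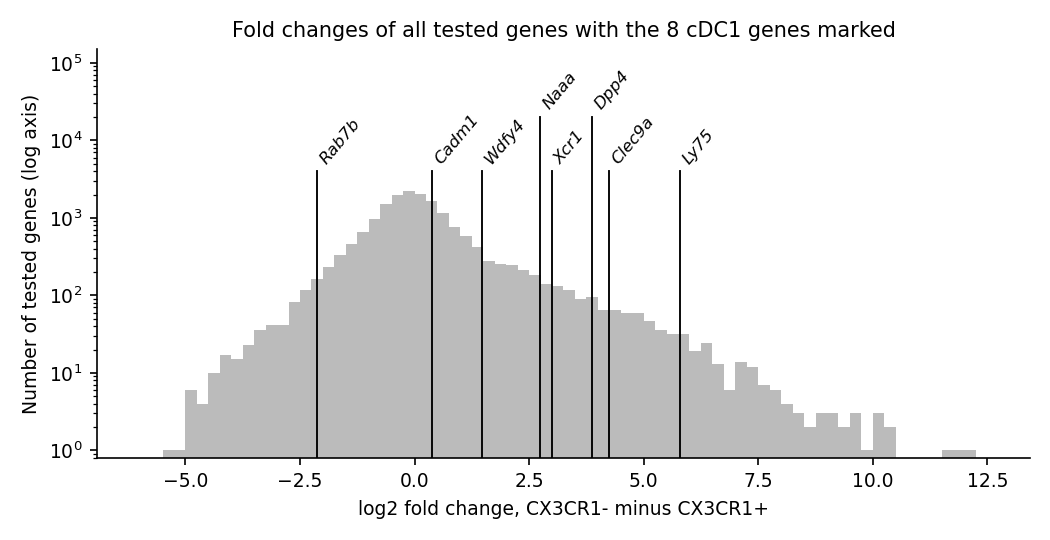
The histogram counts all 17812 tested genes by log2 fold change (CX3CR1- minus CX3CR1+) on a log axis, with a vertical line for each of the 8 genes. The upper tail is long, so that Xcr1 at 2.99 has 5.40% of the tested genes above it and Ly75 at 5.80 has 0.881%.

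Divided by mean transcript length, the 8 genes could be ranked within each population. In CX3CR1- cells the normalized value per kb was highest for Clec9a (741 ± 116, SD, n = 3) and Naaa (557 ± 89.2, SD, n = 3), whose library ranges overlapped. Rab7b (302 ± 116) and Wdfy4 (291 ± 103) followed and overlapped each other, then came Cadm1 (131 ± 11.7), Dpp4 (89.0 ± 13.5) and Xcr1 (76.2 ± 18.9), of which Dpp4 and Xcr1 overlapped. Ly75 was lowest at 21.8 ± 6.48. In CX3CR1+ cells Rab7b stood alone at 1266 ± 232 per kb. Wdfy4, Cadm1 and Naaa lay between 80.9 and 118 per kb, each overlapping its neighbour in rank. Clec9a followed at 39.9 ± 12.9, Xcr1 at 9.50 ± 2.90 and Dpp4 at 5.87 ± 0.802 per kb, the last 2 again overlapping, and Ly75 was at 0.330 ± 0.427. Among the 17079 tested genes with a transcript length, the per kb level of Clec9a was at percentile 96.9 in CX3CR1- and 56.7 in CX3CR1+ cells, and that of Rab7b was at 92.4 and 98.0.

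Within the CX3CR1- group, the libraries did not rank alike for all 8 genes. Replicate 2 was highest for Xcr1, Clec9a, Cadm1, Wdfy4, Naaa and Ly75, replicate 1 for Dpp4 and replicate 3 for Rab7b. Over all tested genes, each of these libraries was highest for 33.0 to 33.7% of the genes. Mitochondrially encoded genes took 54.9, 47.5 and 52.5% of the total in CX3CR1- replicates 1, 2 and 3. The part of this difference in the order of the libraries was not tested. The ratio of replicate 2 to replicate 1 was 2.14 for Wdfy4, 1.86 for Ly75, 1.85 for Rab7b, 1.65 for Xcr1, 1.34 for Clec9a and 0.778 for Dpp4. The sum of 8 B and plasma cell genes was also highest in replicate 2, at 4089.5 against 1926 and 2085 in replicates 1 and 3, and was 159 to 169 in CX3CR1+ libraries, with Mzb1 listed at 0 there. The 7 genes listed as shared by conventional dendritic cells summed to 1720, 2213 and 1655 in CX3CR1- replicates 1, 2 and 3. They include Ccr7, which is also on the list of mature migratory dendritic cells. The sums of macrophage genes (9963, 12420 and 12263), of mature migratory dendritic cell genes (7520, 9274 and 8249) and of T and NK cell genes (601, 663 and 552) were highest in replicate 2 as well. Those of the other cDC1 genes described below (7256, 8365 and 8431) and of cDC2 genes (6528, 6765 and 6785) were highest in replicate 3. That of 8 fibroblast genes was lowest in replicate 2, at 5280, against 9416 and 16043 in replicates 1 and 3. The part of these cell types in the order of the libraries was not tested.

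**Figure D4:**
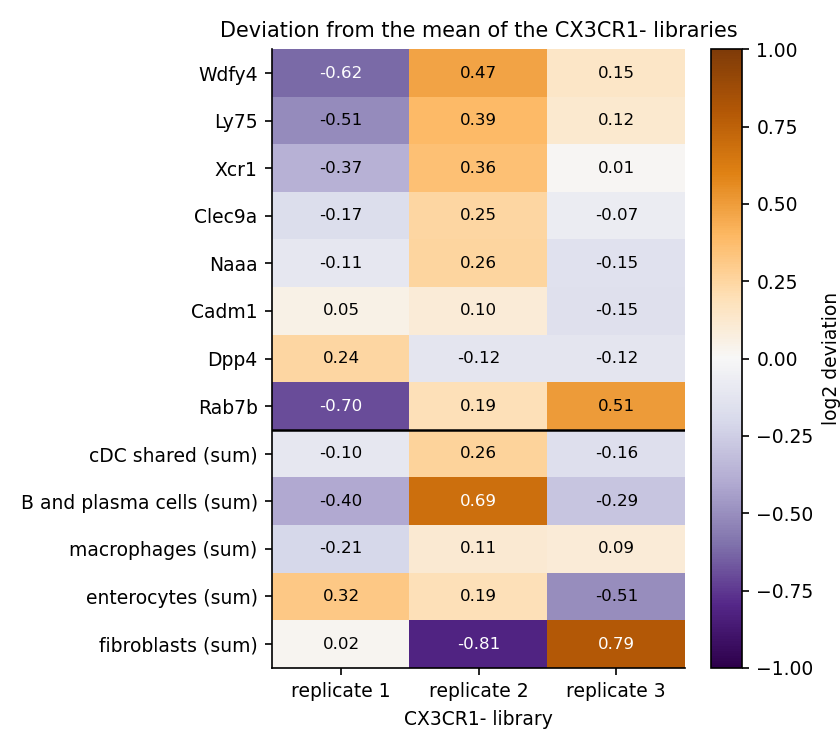
Each cell gives the log2 deviation of a CX3CR1- library from the mean of the 3 CX3CR1- libraries, for the 8 genes above the line and for summed marker lists below it, with brown above and purple below the mean. Replicate 2 is the highest for 6 of the 8 genes, most of all for Wdfy4 at 0.47, while the B and plasma cell sum stands at 0.69 and the fibroblast sum at -0.81 in the same library.

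The sorted cells were also read for what else distinguishes cDC1. Of 19 other cDC1 genes tested, 12 were higher and 1 was lower in CX3CR1- cells, against 12.2 and 8.15% of all tested genes. Their median log2 fold change was 2.42. Btla, a lymphocyte inhibitory receptor that cDC1 share with B cells, was at 462, 394 and 471 against 0, 1.64 and 0, at least 164-fold higher when set against the mean value of 3 reads per CX3CR1+ library. Gpr33 and Clnk were also at or under 3 reads in all CX3CR1+ libraries, and the median of the list was the same with the 3 genes at their bounds. The integrin gene Itgae (CD103), which the study treats as a marker of dendritic cells in general, was at 267, 272 and 504 against 1.86, 3.29 and 0. Tlr3 and Tlr11, receptors for double-stranded RNA and for profilin, had log2 fold changes of 1.25 and 2.49. Of 4 transcriptional regulators on this list, Id2 was lower (-1.81, adjusted p = 0.00141), and Irf8 (-0.22, adjusted p = 0.382) and Nfil3 (-0.10, adjusted p = 0.857) did not pass. Batf3 was at 98.7, 182 and 94.1 against 71.3, 57.9 and 49.0, and its log2 fold change of 1.01 just missed the threshold (adjusted p = 0.0506), which it passed under 3 of the 16 alternatives.

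The general machinery of cross-presentation did not share the direction of the 6 higher genes. The 32 genes tested cover endoplasmic reticulum export, peptide loading, phagosomal oxidation and vesicle traffic. By limma, 0 passed as higher (1 at an unadjusted p under 0.05) and 4 as lower (12 at an unadjusted p under 0.05). Over all tested genes, 12.2% passed as higher and 8.15% as lower. The median log2 fold change of the 32 genes was -0.27. With totals set equal without mitochondrially encoded genes, 2 passed as lower and this median was -0.09. Of the 4, Cybb, the oxidase subunit of the phagosome, had a log2 fold change of -2.23, the protease gene Ctss one of -1.63, B2m, the MHC class I light chain, one of -1.15 and Derl1 one of -1.12. Sec22b, which recruits endoplasmic reticulum membrane to the phagosome, was at 342, 257 and 254 against 261, 265 and 211 (0.21, adjusted p = 0.554). Syk, the kinase downstream of Clec9a, was at 825, 963 and 639 against 797, 879 and 1187 (-0.24, adjusted p = 0.479). For Tap1, a subunit of the peptide transporter into the endoplasmic reticulum, the difference was -0.02 (adjusted p = 0.953).

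Relatives of the 8 genes moved in both directions. Of 32 tested relatives, 7 were higher and 6 lower, 1 of them the sort gene Cx3cr1, against 12.2 and 8.15% of all tested genes. The counts were 6 higher and 8 lower after quantile normalization, and 4 higher and 4 lower without CX3CR1+ replicate 2. Among lectin relatives of Clec9a, Clec1a was higher (1.89), whereas Clec7a and Clec12a did not reach the fold threshold (-0.78 and -0.99). In the mannose receptor family of Ly75, Mrc2 (3.23) and Pla2r1 (1.89) were higher, and Mrc1 (-2.18) and Cd302 (-1.02) were lower. Mrc1 is also on the list of macrophage genes, and the part of other cell types in the levels of these relatives was not tested. Of the DPP family, Dpp7 was lower (-2.09), and Fap, Dpp6, Dpp8, Dpp9 and Dpp10 did not pass. Of the BEACH family of Wdfy4, Wdfy3 was lower (-1.51) and Lyst higher (1.02), and Lrba, Nbea, Nbeal1 and Nbeal2 did not pass. Cadm2 (2.25) and Cadm3 (2.23) were higher at low levels, from 18.9 to 67.8 and from 26.6 to 124 in CX3CR1- libraries.

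The genes whose pattern over the 6 libraries was most like that of 2 defining receptors were listed by Pearson's r on the log2 scale among 10208 genes with a mean of at least 50. All points share the same 6 libraries and the gap between the populations, so that r is only a description. For Clec9a they were Cd79a (r = 0.999), Gpr171, Cd55, Diaph1 and Dnpep (each r = 0.998). For Xcr1 they were Fabp6 and Sgms1 (0.998 and 0.997), F2rl2 (0.996), Flrt3 and Igkc (each 0.995). Cd79a and Igkc are B lineage genes and Fabp6 is an enterocyte gene. Among the 8 genes, Naaa (0.988) and Dpp4 (0.987) were nearest to Clec9a, and Naaa (0.980) was nearest to Xcr1.

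The markers of other cell types moved between the same groups. All 12 enterocyte genes were higher in CX3CR1- cells, with Apoa4 and Alpi listed at 0 in all CX3CR1+ libraries, as were all 8 fibroblast genes (sums of 5280 to 16043 against 210.2 to 366) and 7 of 8 B and plasma cell genes. Among 11 T and NK cell genes in the data, 4 were tested, of which Cd2 and Il7r were higher and Cd4 was lower, and the sums were 552 to 663 against 651 to 772. Of the genes listed as shared by conventional dendritic cells, 6 of 7 were higher and 0 lower by limma (also 0 lower at an unadjusted p under 0.05). Those higher include Zbtb46 (2.89), Flt3 (3.33), Itgax (2.06) and Ccr7. Itgax encodes CD11c, a protein that the study's flow cytometry found on very few of the CX3CR1- cells. The part of these cell types in the levels of the 8 genes was not tested.

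**Figure D5:**
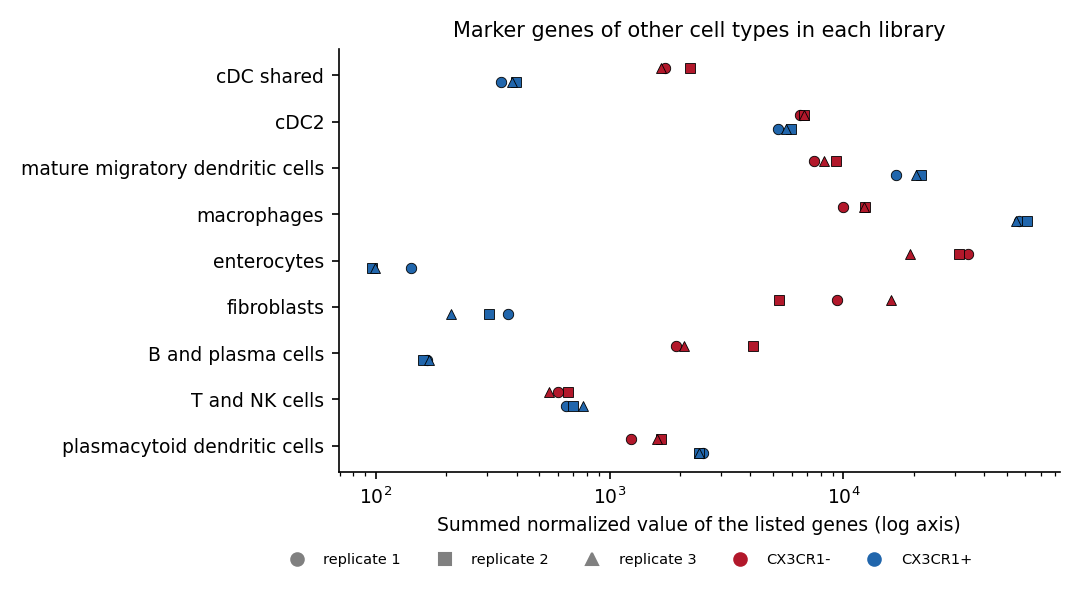
The summed normalized value of each marker list is plotted per library on a log axis, with CX3CR1- libraries in red, CX3CR1+ libraries in blue and a marker shape for each replicate. Enterocyte sums lie at 19337 to 34171 in CX3CR1- and 95.9 to 141 in CX3CR1+ libraries, and macrophage sums, Cx3cr1 included, at 9963 to 12420 and 54635 to 60977.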

How the data were processed

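Bulk RNA-seq values of 6 libraries were analysed, 3 of MHCIIhiCX3CR1- and 3 of MHCIIhiCX3CR1+ cells, grouped by the sample labels. The authors pseudoaligned the reads with Kallisto to GENCODE transcripts of mm10, summarized them per gene with tximport and used DESeq2 to normalize them. What they deposited is therefore signal normalized between libraries, for 26110 genes with 23 symbols that occur more than once. They are not counts. Per library, 42.5 to 44.6% of the non-zero values were whole multiples (within 0.01) of the value of 1 read, and no count test was run. That value gave the approximate reads per library. Their number and the SD over 3 libraries limit the precision.

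Genes whose mean over the libraries was 10 or more were tested with limma 3.58.1 in R 4.3.3 on log2(value + 1), two-sided, with a variance prior that follows intensity. Benjamini-Hochberg adjustment covered all 17812 of them. The fit was checked on simulated data. For single genes an exact permutation test stands beside it. Alternatives were pseudocounts of 0.5 and 10, other filters on low values, 3 rescalings, no trend, library quality weights, a block for adjacent library numbers and leaving out each library. Gene positions, transcript lengths and shared 31-mers came from a later GENCODE release for GRCm38 than that of the authors, and promoters from RefSeq (GRCm38.p6). Plots were drawn with matplotlib 3.10.9.

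The 8 genes and the lists were written by hand with earlier results of these data known, so that their direction is not independent evidence. The genes named are the 8, genes of the 15 lists, genes that overlap the 8, and the 5 genes most like Clec9a and Xcr1. Of the mast cell list, 3 of 8 genes were in the data, and the other genes were not analysed here. Flow cytometry, qPCR and microscopy were not analysed here.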

Additional observations from a re-analysis of the deposited data

How the results depend on the processing

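Under all 16 alternatives, the same 6 genes passed as higher, Rab7b passed as lower and Cadm1 did not pass. Leaving out 1 library moved the log2 fold change of Wdfy4 between 1.23 and 1.78, that of Xcr1 between 2.72 and 3.18, that of Rab7b between -2.38 and -1.78 and that of Ly75 between 5.20 and 6.48. The largest adjusted p of Wdfy4 was 0.0298 and that of Rab7b 0.00982, both without a trend in the variance prior. That of Cadm1 was 0.568, without CX3CR1+ replicate 2. The groups of Cadm1 did not overlap under 2 rescalings, without CX3CR1- replicate 3 and without CX3CR1+ replicate 1. Median-of-ratios rescaling gave each library the same factor. Quantile normalization shifted the median over all genes to -0.15 (log2) and the calls from 2177 higher and 1451 lower to 1716 and 1674. Equal totals without mitochondrially encoded genes gave 0.17, with 2520 higher and 1113 lower. The block for adjacent library numbers, which the labels do not give as a pairing, changed no call of the 8 genes. Depth limits Ly75, whose CX3CR1+ values rest on about 0 to 3.46 reads, and groups of 3 libraries give no permutation p under 0.1.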

Other observations

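Other dendritic cell programs differed between the sorted populations as well. Of 5 cDC2 genes tested, Cd209a (log2 fold change 4.99), Irf4 (1.64) and Tnip3 (1.49) were higher in CX3CR1- cells and Sirpa (-2.11), which macrophages also make, was lower. Cd209a was at 898, 826 and 803 in CX3CR1- libraries and at 16.9, 30.2 and 32.5 in CX3CR1+ libraries. Of 12 genes of mature migratory dendritic cells, 7 were higher and 3 lower. Ccr7, among the higher ones, is also on the list of genes shared by conventional dendritic cells. Ccl22, a chemokine that attracts regulatory T cells, was at 1226, 1494 and 1020.2 against 93.3, 80.7 and 73.0 (3.89, adjusted p = 3.56e-06), and the lymph node homing receptor gene Ccr7 had a log2 fold change of 4.09. Cd40 (-1.19), Cd83 (-1.90) and Birc3 (-1.15) were lower.

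Of 6 genes of plasmacytoid dendritic cells tested, Siglech (-2.23) and Bst2 (-1.85) were lower in CX3CR1- cells, and Klk1 and Ly6d were higher. Ly6d was at 67.8, 87.6 and 26.9 against 0 in all CX3CR1+ libraries. Klk1 was at 32.2, 444 and 217 against 0, 35.9 and 0, so that its groups overlapped, and it did not pass under 5 of the 16 alternatives. Of the chemokine receptor relatives of Xcr1, Ccr2 was higher (1.23). Ccr1, at 97.7 to 134 against 173 to 254, did not reach the fold threshold.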
